A study of Mus musculus with 12 samples.

Results

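The genes described here are 10 mouse genes of glucose uptake, glycolysis and lactate handling outside the hexokinases, chosen by symbol among the 27998 genes of the deposited count files. They are Slc2a1, Pfkl, Pfkp, Pfkfb3, Aldoa, Pgk1, Eno1, Pkm, Ldha and Slc16a3. All 10 were present in the files of every library, and all 10 passed the filter on low counts in each comparison of runs, labels, clusters, subsets, cell types and Hk2 status below. In the comparisons within single groups, 8 or 9 of the 10 passed it.

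Glycolysis breaks glucose down to pyruvate in the cytosol, and cells that divide, are activated or lack oxygen often convert much of that pyruvate to lactate and export it. Slc2a1 encodes the glucose transporter GLUT1. Phosphofructokinase, encoded by Pfkl (liver type) and Pfkp (platelet type), catalyses a main control step, and Pfkfb3 makes its allosteric activator fructose 2,6-bisphosphate. Aldoa (aldolase A), Pgk1 (phosphoglycerate kinase), Eno1 (enolase) and Pkm (pyruvate kinase) carry the later steps, Ldha (lactate dehydrogenase A) converts pyruvate to lactate, and Slc16a3 encodes MCT4, a transporter that exports lactate. Several of these genes are known targets of the hypoxia-inducible factors. In the inflamed synovium, the soft tissue that lines a joint, fibroblasts are known for a high use of glucose.

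The measurements were single-cell RNA sequencing of CD45-negative cells, that is cells without the common leukocyte marker, sorted from the hind limb joints of wild-type C57BL/6 mice. The study used male mice of 8 to 10 weeks, with no engineered allele in any group. Arthritis was induced by injecting serum of arthritic K/BxN mice into a vein (serum transfer-induced arthritis, STIA), and the 4 labels, with 3 libraries each, were rest, without treatment on day 0, peak at days 7 to 9, resolving, taken on day 15, and resolved, taken on day 22. Each library pooled the joints of 3 animals, so a library, not an animal, is the unit of n here. The model is passive: serum antibodies start it, and the CD45-negative sort leaves out most of the immune cells that take part in it.

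After limits on genes and UMIs (unique molecular identifiers, each counting 1 captured RNA molecule) 20060 of 21042 deposited cells were kept, 1227 to 2747 per library. Of these, 11588 cells (57.8%) were fibroblast-like, with 595 to 1966 per library and 3566608 to 12220523 UMIs in the fibroblast sum of a library. Cell types and fibroblast subsets were rebuilt here by clustering without the 10 genes and without the 29 other genes of the pathway list, and were named from marker genes.

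The libraries do not group by their labels. Every barcode carries a suffix from 1 to 12, and the 4 runs of 3 consecutive suffixes (1 to 3, 4 to 6, 7 to 9 and 10 to 12) each hold libraries of 3 different labels. What a run stands for is not given in the sources used here. Over 11802 genes of the fibroblast sums, the median share of the variance between libraries that lay between runs was 68.5%, against 15.0% between labels. For the 10 genes the share between runs was 67.1% to 97.85% and that between labels 8.40% to 26.6%. Any division of 12 libraries into 4 groups of 3 holds some of the variance by chance. A share between labels is therefore not by itself an effect of stage. The summed level of the 7 fibroblast markers was 56320 to 72431 CPM (UMIs per 1000000 UMIs summed) in suffixes 1 to 3, 17620 to 20935 in 4 to 6, 20380 to 25612 in 7 to 9 and 45633 to 58942 in 10 to 12. Results are therefore given by suffix as well as by label, and no run is called by a condition.

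The start sites of 4 of the genes are shown because 3 of them (Ldha, Pgk1 and Slc16a3) were high and 1 (Pfkp) was low in the libraries with suffixes 4 to 6. Each sequence is the 160 bases before the first start site in RefSeq (build GRCm38.p6), read 5′ to 3′ on the strand of the gene. Capitals mark ACGTG or GCGTG on either strand, the core letters of the site that hypoxia-inducible factors bind, and matches that overlap run together.
Ldha (chr7:46845644-46845803, plus strand): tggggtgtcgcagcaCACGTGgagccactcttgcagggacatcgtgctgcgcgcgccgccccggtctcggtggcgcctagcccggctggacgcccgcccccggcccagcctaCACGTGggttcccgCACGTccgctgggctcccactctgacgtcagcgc
Pgk1 (chrX:106186940-106187099, plus strand): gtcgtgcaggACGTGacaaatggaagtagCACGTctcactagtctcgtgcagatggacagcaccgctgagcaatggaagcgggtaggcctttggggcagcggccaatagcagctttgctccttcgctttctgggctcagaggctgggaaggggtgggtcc
Slc16a3 (chr11:120948907-120949066, plus strand): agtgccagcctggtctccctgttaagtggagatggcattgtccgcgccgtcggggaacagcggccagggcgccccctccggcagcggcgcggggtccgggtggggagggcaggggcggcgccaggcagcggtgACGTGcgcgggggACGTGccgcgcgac
Pfkp (chr13:6648772-6648931, minus strand): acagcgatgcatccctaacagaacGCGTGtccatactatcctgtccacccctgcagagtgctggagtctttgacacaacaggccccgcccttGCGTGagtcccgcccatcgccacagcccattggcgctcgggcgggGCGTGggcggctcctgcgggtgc

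The wider window of 250 bases before to 50 after the start holds 7 matches for Ldha, 4 for Pfkp and 2 each for Pgk1, Slc16a3, Slc2a1 and Eno1. Pfkl and Pfkfb3 have 1, and the first windows of Aldoa and Pkm have 0. Of the 10 genes, 8 therefore hold the letters in their first window, against 43.8% of the 27025 genes with a window. Some genes have further start sites: window 2 of Pfkfb3 holds 4 matches, window 2 of Pkm 2, and windows 2 and 3 of Aldoa 1 each. Over all 17 windows of the 10 genes 15 hold the letters, against 43.8% of all windows. At least 4 matches are found in 3.86% of all 32851 windows and at least 6 in 0.694%. The letters are a description of the windows, and Pfkp, which was low where Ldha was high, has them too.

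In the fibroblast sums, the 10 genes were at their highest together in the libraries with suffixes 4 to 6, apart from Pfkp, which was low there. A level below is the CPM of a gene in the summed cells of a library. The 10 genes together made up 1695 to 1728 CPM in suffixes 1 to 3, 3151 to 4153 in 4 to 6, 1976 to 2199 in 7 to 9 and 1671 to 1726 in 10 to 12. With suffixes 4 to 6 set against 1 to 3, 8 of the 10 genes rose and 1 fell (edgeR, adjusted p under 0.05 with a log2 fold change beyond 0.5 in either direction), where 35.0% of the 11802 genes tested were past the same threshold. The median log2 fold change of the 10 genes was 1.54, beside -0.02 over all genes. With the cells clustered at Leiden resolution 0.5, the calls of Pfkp, Pfkfb3 and Pgk1 were lost. Aldoa, not called here, passed the threshold under 7 alternatives.

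The glucose transporter Slc2a1 had levels of 20.3, 8.77 and 12.9 CPM in suffixes 1 to 3, 75.1, 54.1 and 48.1 in 4 to 6, 21.2, 17.8 and 19.8 in 7 to 9, and 25.5, 29.5 and 27.2 in 10 to 12. The 3 libraries of suffixes 4 to 6 were the highest of the 12, with no overlap. Their log2 fold change over suffixes 1 to 3 was 2.14 ± 0.22 (SE, n = 3 against 3, edgeR adjusted p = 4.91e-06).

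Of the phosphofructokinase genes, Pfkl and Pfkp went opposite ways. Pfkl had 11.8, 8.09 and 7.85 CPM in suffixes 1 to 3, 50.3, 37.5 and 41.5 in 4 to 6, 26.8, 21.2 and 23.4 in 7 to 9, and 11.1, 14.1 and 13.5 in 10 to 12. Pfkp had 65.6, 49.9 and 68.7 in suffixes 1 to 3, 42.3, 35.7 and 36.2 in 4 to 6, 50.6, 41.6 and 34.5 in 7 to 9, and 70.0, 68.5 and 63.4 in 10 to 12. In suffixes 4 to 6 all values of Pfkl were above, and all values of Pfkp below, those of suffixes 1 to 3. The log2 fold changes were 2.27 ± 0.17 for Pfkl (edgeR adjusted p = 3.36e-07) and -0.63 ± 0.14 for Pfkp (edgeR adjusted p = 0.00273). Pfkfb3, which makes the activator of this enzyme, was counted with only 692 UMIs over all fibroblasts and had 3.15 to 10.3 CPM in suffixes 1 to 3 and 13.7 to 16.4 in 4 to 6, a log2 fold change of 1.36 ± 0.27 (edgeR adjusted p = 0.00104).

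Among the enzymes of the later steps, Pkm had 430, 418 and 424 CPM in suffixes 1 to 3, 1232, 1012 and 1065 in 4 to 6, 678, 586 and 629 in 7 to 9, and 469, 433 and 419 in 10 to 12. Eno1 had 177, 173 and 184, then 651, 376 and 587, then 292, 272 and 217, and 184, 171 and 160 in the same order. Both rose in suffixes 4 to 6, by log2 fold changes of 1.44 ± 0.10 for Pkm (edgeR adjusted p = 1.78e-07) and 1.65 ± 0.16 for Eno1 (edgeR adjusted p = 3.56e-06). Aldoa went from 461 to 513 CPM in suffixes 1 to 3 to 583 to 724 in 4 to 6, again without overlap, but its log2 fold change of 0.47 ± 0.10 was under the size threshold (edgeR adjusted p = 0.00211). Pgk1 had 10.5, 8.54 and 7.29 in suffixes 1 to 3 but 56.6, 15.7 and 33.1 in 4 to 6 and 14.2, 29.0 and 6.36 in 7 to 9, and its log2 fold change in suffixes 4 to 6 was 2.02 ± 0.50 (edgeR adjusted p = 0.00450). Eno1 shares the last 300 bases of its transcript with Eno1b (100% of 31-base stretches) and Aldoa shares 50.7% with Aldoart1, so reads of these genes could be split or dropped by the counting. Eno1b had 490 UMIs in fibroblasts and Aldoart1 had 28.

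At the end of the pathway, Ldha had 509, 507 and 521 CPM in suffixes 1 to 3, 1165, 954 and 965 in 4 to 6, 590, 538 and 585 in 7 to 9, and 483, 523 and 505 in 10 to 12. Its log2 fold change in suffixes 4 to 6 was 1.06 ± 0.10 (edgeR adjusted p = 1.39e-06). The lactate exporter Slc16a3 had 12.5, 5.62 and 9.81 in suffixes 1 to 3, 140, 69.1 and 93.7 in 4 to 6, 43.7, 44.8 and 42.1 in 7 to 9, and 15.0, 19.3 and 12.1 in 10 to 12. Of the 10 genes Slc16a3 had the largest log2 fold change in suffixes 4 to 6, 3.50 ± 0.27 (edgeR adjusted p = 3.66e-07).

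**Figure D1:**
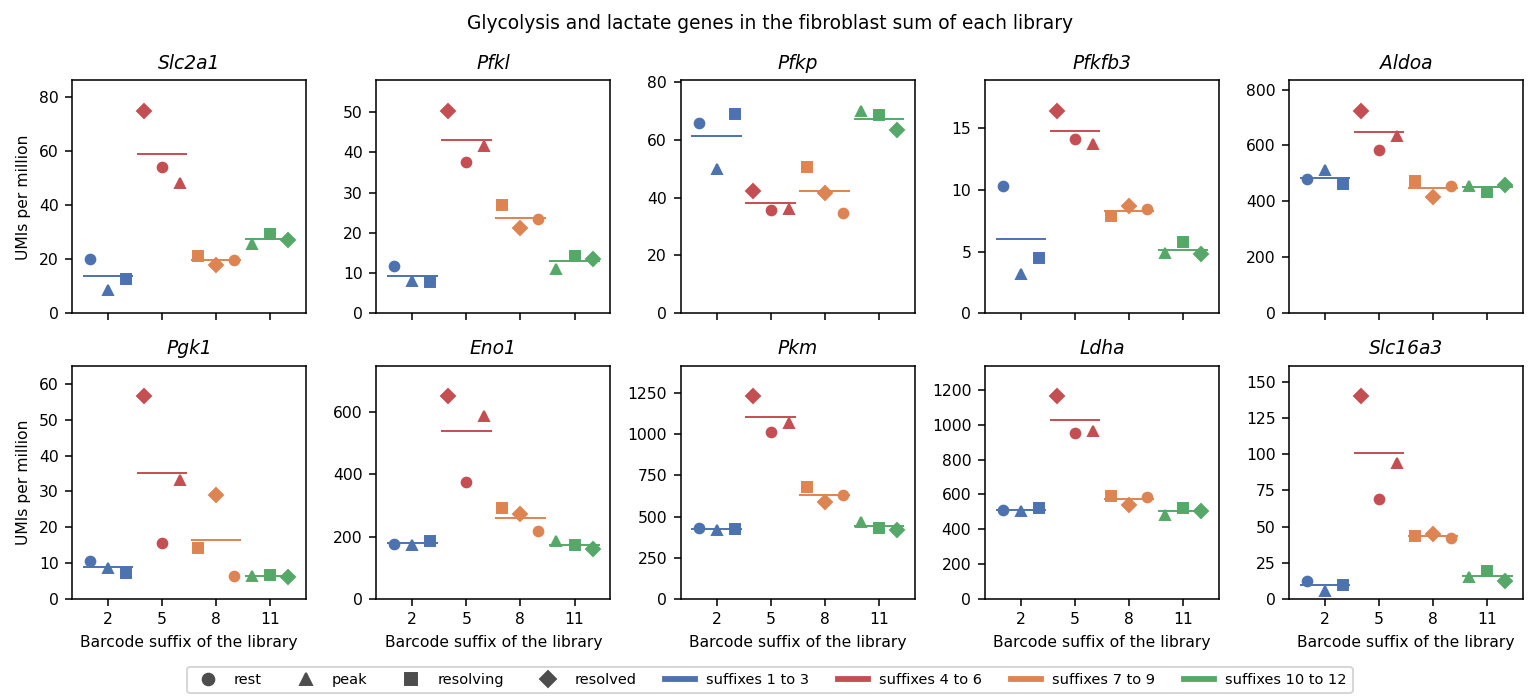
Level of each gene (CPM, linear axis from 0) in the fibroblast sum of each of the 12 libraries, ordered by barcode suffix; marker shapes give the label, colours the run of 3 suffixes, and horizontal lines the mean of a run. Apart from Pfkp, each gene is highest in suffixes 4 to 6 (Ldha 954 to 1165, Slc16a3 69.1 to 140), while libraries with one label lie far apart.

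In suffixes 7 to 9 against 1 to 3, 4 of the 10 genes rose and 1 fell, where 26.3% of all genes were past the threshold. Slc16a3 rose by a log2 fold change of 2.25 ± 0.27 (edgeR adjusted p = 3.10e-05), Pfkl by 1.37 ± 0.18, Pkm by 0.58 ± 0.10 and Eno1 by 0.56 ± 0.16, and Pfkp had -0.52 ± 0.14. Suffixes 10 to 12 were close to 1 to 3: 1 of the 10 genes was past the threshold, Slc2a1 at 1.05 ± 0.23 (edgeR adjusted p = 0.0363), with 1.59% of all genes. The call of Pkm in 7 to 9 was lost under 5 alternatives (0.42 to 0.48; no upper limits, at most 10% mitochondrial UMIs, doublets removed, Leiden resolution 0.5, members kept for clustering) and that of Eno1 under 4 of them (0.37 to 0.47). The call of Slc2a1 in 10 to 12 was lost under the same 5 alternatives. It was also lost with total counts alone and with tenocyte-like and proliferating-like cells counted as fibroblasts. Without the filter on low counts, the call of Pfkp in 7 to 9 was lost. Of these smaller calls, 3 were lost when a library was left out. The call of Slc2a1 in suffixes 10 to 12 was lost without peak replicate 1, resolved replicate 3, resolving replicate 1 or resolving replicate 3 (0.82 to 1.04), that of Pfkp in 7 to 9 without resolved replicate 2, resolving replicate 1, rest replicate 1 or rest replicate 3 (-0.48 to -0.40), and that of Eno1 in 7 to 9 without resolving replicate 2 (0.47).

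An F test over the 4 runs was past adjusted p 0.05 for all 10 genes, where 58.5% of all genes were. Counted without a model, 9 of the 10 genes had all 3 values of suffixes 4 to 6 above all those of suffixes 1 to 3, and Pfkp had them below, where 23.8% and 29.6% of all genes did. In suffixes 7 to 9, 5 genes lay above and 0 below (24.0% and 22.5% of all genes). In suffixes 10 to 12, 1 gene lay above and 2 lay below (6.56% and 16.1%).

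A fibroblast sum mixes clusters of fibroblasts, and in such a sum fewer cells of one kind cannot be told apart from less RNA per cell. The same runs were therefore compared within narrower groups, a set of comparisons chosen after the data were seen. Within lining-like fibroblasts alone, 5 genes rose in suffixes 4 to 6, where 21.0% of the genes tested there were called. They were Slc16a3 (1.35 ± 0.27), Eno1 (1.08 ± 0.19), Pkm (1.04 ± 0.14), Pfkl (0.81 ± 0.27) and Ldha (0.63 ± 0.12). Lining-like Ldha was 682 to 781 CPM in suffixes 1 to 3 and 1091 to 1315 in 4 to 6. In suffixes 7 to 9 none of the members tested in lining-like cells was called, beside 10.2% of the genes tested. Those that rose there in the fibroblast sum had Slc16a3 at 0.23 ± 0.30, Pfkl 0.29 ± 0.29, Pkm 0.34 ± 0.14 and Eno1 0.26 ± 0.19. Within vascular endothelial-like cells, Slc16a3 (1.93 ± 0.42), Pkm (1.53 ± 0.15), Slc2a1 (1.06 ± 0.25), Eno1 (0.65 ± 0.17) and Ldha (0.56 ± 0.12) rose in suffixes 4 to 6, beside 20.1% of the genes tested. Pkm alone rose there in suffixes 7 to 9 (0.74 ± 0.16), beside 9.54%. Within perivascular-like cells Eno1 (0.80 ± 0.25) and Ldha (0.67 ± 0.19) rose, beside 20.8%, while in suffixes 7 to 9 their Aldoa fell (-0.61 ± 0.16; 596 ± 96.1 CPM against 900 ± 106 in 1 to 3), beside 18.1%, and within osteoblast-like cells 0 members were called, beside 0.744%. In osteoblast-like cells, which have 61 to 284 cells per library, Ldha was 433 to 566 CPM in suffixes 1 to 3 and 470 to 959 in 4 to 6.

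Other measures moved with the runs. The summed level of 19 hypoxia-responsive genes in fibroblasts was 1527 to 1846 CPM in suffixes 1 to 3, 2547 to 3122 in 4 to 6, 1699 to 1807 in 7 to 9 and 1767 to 2221 in 10 to 12. In suffixes 4 to 6, 9 of its 18 tested genes rose and 1 fell, beside 35.0% of all genes, with Mif, Ak4 and Ddit4 rising most. A list of 20 genes of tissue dissociation and early stress summed to 21705 to 28084 in suffixes 1 to 3, 15860 to 17011 in 4 to 6, 17070 to 19307 in 7 to 9 and 21066 to 29268 in 10 to 12. Markers of some other cell types differed between runs too. In the order of suffixes 1 to 3, 4 to 6 and 7 to 9, the summed level of immune markers was 0.45 to 2.52, 2.73 to 10.5 and 4.83 to 8.76, that of proliferating cells 4.90 to 6.73, 50.5 to 67.1 and 15.8 to 27.8, and that of tenocytes 195 to 343, 1029 to 1473 and 2661 to 3731. Perivascular markers summed to 67.3 to 121, 157 to 234 and 130 to 170, and osteoblast markers to 150 to 354, 59.7 to 71.7 and 83.0 to 137. In suffixes 10 to 12 immune markers summed to 1.57 to 2.87, proliferating 2.62 to 3.79 and tenocyte 525 to 912. Perivascular markers there summed to 80.7 to 122 and osteoblast markers to 202 to 379. Over suffixes 1 to 9, lymphatic endothelial (4.49 to 9.55, 5.73 to 10.1 and 7.73 to 13.4) and muscle markers (14.2 to 17.7, 11.6 to 15.9 and 10.7 to 15.7) overlapped between runs. Median UMIs per kept cell were 5232 to 5562 over all libraries. The part of these measures in the results was not tested.

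By the labels, which the study set out to compare, 0 of 30 pairs of gene and later stage were past the threshold, and 0.0% of all genes were in each of the 3 comparisons with rest (edgeR). Whether each label belongs to the file it was deposited with could not be checked here, so these values hold for the libraries as labelled. The lowest adjusted p of the 30 pairs was 0.999, the lowest unadjusted p was 0.0795, and 0 pairs had an unadjusted p under 0.05. DESeq2 called 1 of all genes and 0 of the pairs. The levels overlapped at every stage. Ldha was 683 ± 238 CPM at rest (SD, n = 3), 652 ± 272 at peak, 544 ± 39.0 when resolving and 736 ± 372 when resolved. Slc16a3 was 41.2 ± 28.3 at rest, 38.1 ± 48.4 at peak, 24.2 ± 17.5 when resolving and 65.7 ± 66.6 when resolved, and Slc2a1 was 31.4 ± 19.7, 27.5 ± 19.8, 21.2 ± 8.31 and 40.0 ± 30.7 in that order. The median log2 fold change of the 10 genes against rest was -0.06 at peak, -0.40 when resolving and 0.18 when resolved. In simulated counts with this spread, the test at peak against rest found 1.01% of the genes given a log2 change of 1, so a change of that size was not detectable in the fit without a block. With the run of suffixes as a block, which the labels cross, 0 of the 30 pairs and 0 of all genes were called, with 333 to 379 genes at an unadjusted p under 0.05 against 37 to 88 without it. Both are fewer than the share of 0.05 of the 11802 genes tested that chance alone would give. The largest value of a member in the fit with that block was Pgk1 when resolved (1.54 ± 0.30, edgeR adjusted p = 0.899).

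Between clusters of fibroblasts, 57 of 110 pairs of gene and cluster were past the threshold, 24 higher and 33 lower, beside 18.8% of the pairs over all genes. The clusters were drawn from other genes of the same cells, so these differences describe the clusters and are not independent of them. A small cluster of 229 cells led by Cytl1, Inhba and Mmp3 stood highest. In it 9 genes were higher than in the mean of the other clusters, where 23.7% of the 8526 genes tested were past the threshold. Slc16a3 was at 333 ± 48.7 CPM there (SD, n = 6 libraries), with 277 as its lowest and 408 as its highest value, Ldha at 1493 ± 290, Pkm at 2322 ± 341 and Slc2a1 at 180 ± 132. The log2 fold changes were 3.93 ± 0.20 for Slc16a3, 2.83 ± 0.24 for Slc2a1, 2.21 ± 0.22 for Pfkl, 2.00 ± 0.10 for Pkm, 1.65 ± 0.18 for Pfkp and 1.23 ± 0.09 for Ldha. Pfkfb3 was not past the threshold (0.72 ± 0.42). The 6 libraries with at least 10 cells of this cluster were those of suffixes 4 to 9, so it could not be compared in the other 6.

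The cluster led by Cxcl5, Saa3 and Sfrp1 (1545 cells) had 7 genes higher and Pfkp lower (-0.93 ± 0.16), beside 20.3% of all genes. Slc16a3 was higher by 1.56 ± 0.18, Pfkfb3 by 1.17 ± 0.21, Pfkl by 1.10 ± 0.16, Pgk1 by 1.09 ± 0.17, Eno1 by 1.03 ± 0.13, Slc2a1 by 0.92 ± 0.19 and Pkm by 0.76 ± 0.10. This cluster made up 43.5% to 47.4% of the fibroblasts in suffixes 4 to 6, 5.29% to 6.07% in 7 to 9, at most 0.133% in 1 to 3 and at most 0.271% in 10 to 12, so most of its cells come from suffixes 4 to 6. The cluster led by Col5a3 and Lrrc15 had 4 genes higher (Slc16a3, Pfkl, Pgk1 and Eno1, 0.77 to 1.54), beside 11.7%, and was 19.4% to 31.03% of fibroblasts in suffixes 7 to 9. The cluster led by C1qtnf3 and Spon2 had Slc16a3 higher (1.11 ± 0.21) and Slc2a1 and Pfkp lower, beside 19.8%, the call of Slc2a1 being lost without rest replicate 3 (-0.59). That call was also lost with DESeq2. With each cell thinned to 2000 UMIs, the calls of Slc16a3 and Slc2a1 in this cluster were both lost.

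At the other end, the cluster led by Serpina3c and Engase (2108 cells, the largest) had 8 genes lower and 0 higher, beside 18.1% of all genes. Its Slc16a3 was 3.03 ± 2.88 CPM (SD, n = 12), with a log2 ratio of -2.76 ± 0.33, and Pfkfb3 (-1.73 ± 0.27), Slc2a1 (-1.59 ± 0.27) and Pfkl (-1.29 ± 0.20) were lower too. The cluster led by Hmcn2 and Ccl11 had 6 genes lower, beside 18.5%, with Slc16a3 at -2.65 ± 0.42, Pfkl at -1.27 ± 0.27, Pkm at -1.10 ± 0.09, Slc2a1 at -0.92 ± 0.29, Eno1 at -0.91 ± 0.13 and Pgk1 at -0.87 ± 0.30. The cluster led by Ifi205, C4b and Ccl7 had 5 genes lower (Slc16a3, Eno1, Pfkl, Pgk1 and Pkm, -2.31 to -0.83) and Pfkfb3 higher (0.78 ± 0.23), beside 29.8%. The list of 20 dissociation and stress genes moved with these clusters: 15 were higher in the Hmcn2 cluster, 12 in the Ifi205 cluster and 13 in the Fbln7 cluster, while 14 were lower in the Cytl1 cluster and 14 in the Col5a3 cluster. Its part in the levels of the 10 genes was not tested. The cluster led by Fbln7 and Gpnmb had Slc2a1 higher (0.76 ± 0.24) and Aldoa and Eno1 lower, beside 15.2%, and in the cluster led by interferon-induced genes (Ifit3) 0 genes were called, beside 2.80%. A few of these calls were lost when a library was left out: Slc2a1 in the Fbln7 cluster was lost without resolved replicate 3 or resolving replicate 3 (0.49 to 0.56), Pgk1 in the Hmcn2 cluster without peak replicate 2 (-0.68), Eno1 in the Serpina3c cluster without peak replicate 2, resolved replicate 1 or rest replicate 2 (-0.49 to -0.44), Pkm there without peak replicate 2 or rest replicate 2 (-0.49 to -0.47), and Aldoa in the Fbln7 cluster without peak replicate 1, 2 or 3, resolved replicate 2, resolving replicate 1 or rest replicate 3 (-0.50 to -0.47). Depth differed too, with median UMIs per cell from 3821 in the Hmcn2 cluster to 9961 in the Cxcl5 cluster. With each cell thinned to 2000 UMIs, Pgk1 lost its calls in the Serpina3c, Cxcl5, Hmcn2, Cytl1 and Stmn4 clusters. Eno1 and Pkm in the Serpina3c cluster, Slc2a1 in the Hmcn2 cluster, and Slc2a1 and Eno1 in the Fbln7 cluster lost theirs as well.

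**Figure D2:**
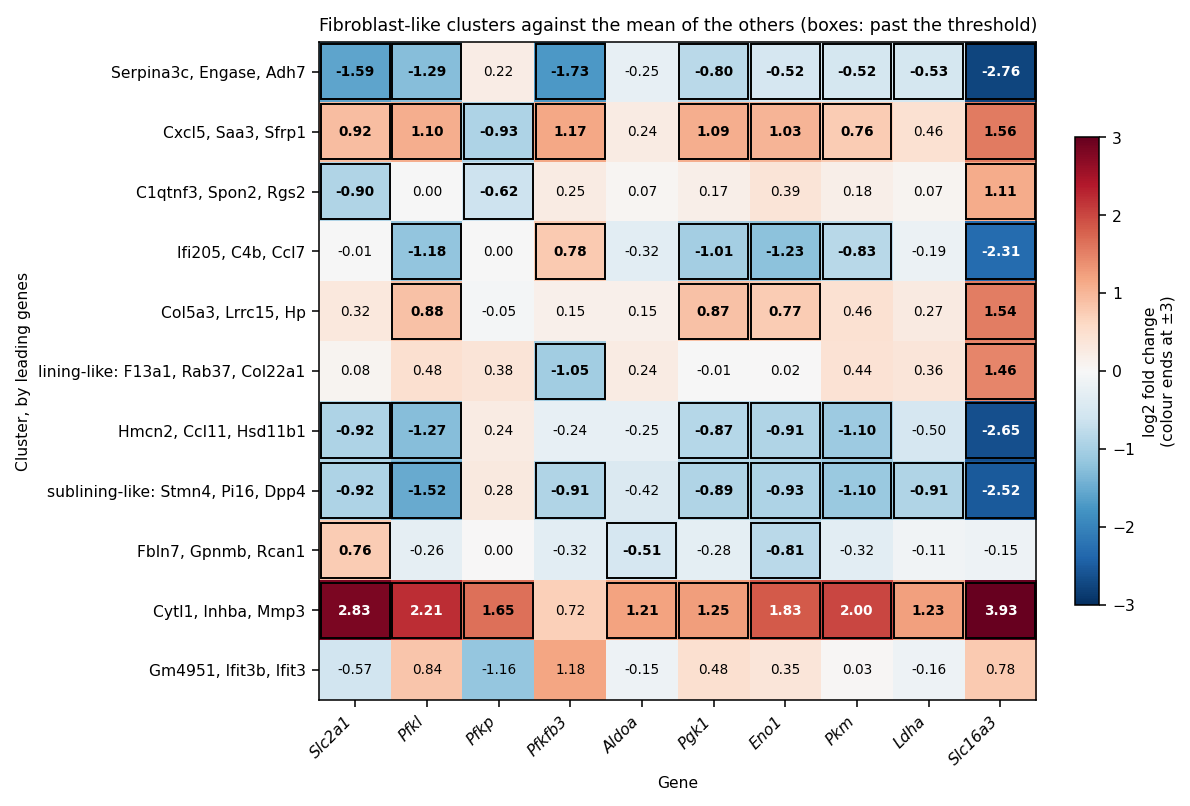
Fitted log2 fold change of each gene (columns) in each fibroblast-like cluster (rows, by leading genes) against the mean of the other clusters, with the library as a block; black boxes and bold numbers mark values past the threshold. The row led by Cytl1 is high for 9 of the 10 genes, while the rows led by Serpina3c, Hmcn2 and Stmn4 are low for 6 to 8 of them.

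The lining-like cluster is led by F13a1 and holds Prg4, the lubricin gene of the layer that faces the joint space, among its 10 leading genes. The sublining-like cluster is led by Stmn4, Pi16 and Dpp4 and was named from markers of the layer beneath. It held 728 cells (6.28% of fibroblasts) and is a subset, not that layer as a whole. The Serpina3c cluster also has Pi16 among its 10 leading genes and counts among the other fibroblasts below. Against all other fibroblasts of the same library, sublining-like cells had 6 of the 10 genes lower and 0 higher, beside 14.8% of all genes. Slc16a3 was 4.28 ± 6.74 CPM in them and 43.5 ± 42.9 in the others (SD, n = 11 libraries), with a log2 ratio of -2.82 ± 0.33 (edgeR adjusted p = 5.27e-08), on 13 UMIs in the sublining-like sums. Ldha was 380 ± 99.1 against 676 ± 237 and lower in 11 of 11 libraries (-0.84 ± 0.10, edgeR adjusted p = 1.51e-07), and Pkm was 301 ± 48.7 against 665 ± 302, also lower in 11 of 11 (-1.005 ± 0.15, edgeR adjusted p = 2.83e-06). Pfkl (-1.32 ± 0.33), Slc2a1 (-0.81 ± 0.21) and Eno1 (-0.79 ± 0.13) were lower as well, while Pfkp had 0.20 ± 0.14. In the fit by cluster, where the sublining-like cells were set against the mean of the clusters, 8 genes were lower, beside 19.9%. There the calls of Pfkfb3 (without peak replicate 3, resolved replicate 1, resolved replicate 3, resolving replicate 1 or rest replicate 2, -0.89 to -0.72), Pgk1 (without peak replicate 1, resolving replicate 2 or rest replicate 1, -0.87 to -0.77) and Slc2a1 (without peak replicate 3 or rest replicate 1, -0.85 to -0.77) were lost when any 1 of the named libraries was left out.

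Lining-like cells had 1 gene higher and 1 lower against other fibroblasts, beside 28.0% of all genes. Pfkfb3 was 3.99 ± 1.70 CPM in lining-like cells and 9.05 ± 4.79 in the others, lower in 10 of 12 libraries (-1.11 ± 0.25, edgeR adjusted p = 0.00134). Slc16a3 was 56.0 ± 31.9 against 39.6 ± 43.2 and higher in 10 of 12 (0.79 ± 0.30, edgeR adjusted p = 0.0373), but that call was lost without peak replicate 1 or 3, resolved replicate 3, resolving replicate 1 or 3, or rest replicate 1 (0.62 to 0.78). Ldha, Pkm and Pfkp were higher in lining-like cells in 12 of 12 libraries, by 0.36 ± 0.07, 0.39 ± 0.07 and 0.42, under the size threshold. The remaining genes had -0.23 (Pgk1) to 0.34 (Pfkl). In the fit by cluster, lining-like cells had Slc16a3 higher (1.46 ± 0.16) and Pfkfb3 lower (-1.05 ± 0.24), beside 27.5%.

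Between cell types, 53 of 110 pairs of gene and type were past the threshold against fibroblasts, 25 higher and 28 lower, beside 32.1% of the pairs over all genes. That split depends on the scaling: with RLE size factors 26 were higher and 17 lower, with total counts alone 29 and 14, and with DESeq2 25 and 17. Chondrocyte-like cells, cartilage cells of a tissue with few vessels, had 8 of the 10 genes higher, beside 46.9% of all genes. Slc2a1 was 123 ± 48.6 CPM in chondrocyte-like sums (SD, n = 8 libraries) and 30.03 ± 19.4 in fibroblast sums (n = 12), a log2 fold change of 2.44 ± 0.19 (edgeR adjusted p = 4.21e-20). Pfkfb3 was 68.1 ± 41.0 against 8.53 ± 4.29 (3.06 ± 0.23, edgeR adjusted p = 6.04e-21) and Ldha 1130 ± 233 against 654 ± 233 (0.95 ± 0.14, edgeR adjusted p = 4.55e-09). Slc2a1 and Pfkfb3 were higher in 8 of 8 libraries, Ldha in 7, Pkm in 5 and Slc16a3 in 4. Pfkl (1.97 ± 0.23), Eno1 (1.23 ± 0.19), Pgk1 (0.95 ± 0.24) and Pkm (0.63 ± 0.18) were higher too. Slc16a3 had a fitted 0.92 ± 0.33, past the threshold, although its mean level of 38.3 CPM was below the 42.3 of fibroblasts and it was higher in 4 of 8 libraries, so its direction is uncertain. Aldoa (-0.19 ± 0.14) and Pfkp (0.24 ± 0.16) were not past the threshold. The calls of Slc16a3 (without peak replicate 1, resolving replicate 1, resolving replicate 2 or rest replicate 1, 0.61 to 0.85) and Pkm (without peak replicate 1 or rest replicate 1, 0.47 to 0.48) were lost when any 1 of the named libraries was left out. Chondrocyte-like and proliferating-like cells had the most UMIs per cell, with medians of 12534 and 12696, against 5883 in fibroblasts.

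Proliferating-like cells had 6 genes higher and 0 lower, beside 25.9% of all genes. Slc16a3 was 127 ± 59.1 CPM there (n = 6), with a log2 fold change of 1.17 ± 0.27, followed by Eno1 (0.88 ± 0.20), Pgk1 (0.83 ± 0.20), Pfkl (0.75 ± 0.22), Pkm (0.74 ± 0.19) and Ldha (0.69 ± 0.15), and all 6 were higher in 6 of 6 libraries. Immune-like cells (112 cells, 3 libraries) had Slc16a3 alone past the threshold, at 258 ± 122 CPM and a log2 fold change of 2.33 ± 0.49, beside 30.3%.

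Vascular endothelial-like cells, which line blood vessels, had Pfkfb3 at 48.1 ± 12.7 CPM (n = 12), higher than in fibroblasts in 12 of 12 libraries (2.27 ± 0.18, edgeR adjusted p = 3.51e-20), and Pfkl higher (1.23 ± 0.18). Slc16a3 (-1.45 ± 0.31), Eno1 (-0.62 ± 0.17), Pkm (-0.60 ± 0.16) and Pgk1 (-0.56 ± 0.21) were lower, beside 52.9% of all genes. Lymphatic endothelial-like cells had Pfkfb3 higher as well (48.7 ± 25.3 CPM, n = 10, log2 fold change 1.86 ± 0.38) and 6 genes lower, beside 38.8%: Slc16a3 (-2.87 ± 0.82), Pgk1 (-1.99 ± 0.57), Pkm (-1.73 ± 0.20), Ldha (-1.20 ± 0.15), Eno1 (-0.98 ± 0.22) and Pfkp (-0.75 ± 0.24). Slc16a3 rested on 6 UMIs and Pgk1 on 5 UMIs in lymphatic cells. Perivascular-like cells, the contractile cells around small vessels, had Pfkfb3 (1.39 ± 0.26) and Pfkl (0.98 ± 0.24) higher and Eno1 and Pkm lower, beside 39.5%. The lower values are sensitive: with total counts alone, 1 gene (Slc16a3) was lower in vascular cells and 0 in perivascular cells, as the median over all genes moved from 0.02 to 0.29 and from -0.10 to 0.11. Without resolved replicate 1 the calls of Eno1 (-0.45) and Pgk1 (-0.30) in vascular cells and of Eno1 (-0.41) in perivascular cells were lost, that of Pkm in perivascular cells was lost without resolved replicate 1, rest replicate 2 or rest replicate 3 (-0.49 to -0.43), and that of Pfkp in lymphatic cells without resolved replicate 2 (-0.60).

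Osteoblast-like cells, which form bone, had 6 genes lower and Pfkfb3 higher (0.75 ± 0.23), beside 30% of all genes. Pfkp was 25.3 ± 9.24 CPM there against 52.2 ± 14.2 in fibroblasts (-1.23 ± 0.14, edgeR adjusted p = 1.46e-12), and Aldoa (-0.73 ± 0.12), Pgk1 (-0.72 ± 0.22), Slc16a3 (-0.72 ± 0.29), Slc2a1 (-0.70 ± 0.21) and Eno1 (-0.57 ± 0.17) were lower too. The call of Slc16a3 in osteoblast-like cells was lost without peak replicate 2, resolved replicate 1 or 2, resolving replicate 2, or rest replicate 2 or 3 (-0.70 to -0.49), and that of Eno1 without resolved replicate 1 (-0.38). Tenocyte-like cells had Slc2a1 (0.92 ± 0.17) and Pfkp (0.63 ± 0.12) higher in 11 of 12 libraries, beside 21.3%, but which cells bear that name changed with the clustering: without upper limits, with doublets removed and with the members kept for clustering, Pfkp reversed and the call of Slc2a1 was lost (0.07 to 0.42). Muscle-like cells had Slc2a1 (1.05 ± 0.35) and Pfkp (0.61 ± 0.21) higher and Eno1 (-1.03 ± 0.26) and Ldha (-0.56 ± 0.15) lower, beside 37.4%. Of these, Slc2a1 was lost without peak replicate 1, peak replicate 3 or resolving replicate 1 (0.72 to 0.98), Pfkp without peak replicate 1 or resolving replicate 3 (0.48 to 0.49) and Ldha without resolved replicate 1, resolving replicate 2, rest replicate 2 or rest replicate 3 (-0.50 to -0.45).

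The smallest groups were Schwann-like (83 cells, 3 libraries) and erythroid-like cells (60 cells, 2 libraries). Both had Aldoa, Eno1, Pkm and Ldha lower, beside 15.5% and 14.7% of all genes, with Eno1 at -1.74 ± 0.46 and -2.60 ± 0.64. The Schwann calls of Eno1, Pkm, Ldha and Aldoa were all lost with RLE size factors and with total counts alone, and 3 of them were lost without 1 library: Aldoa without resolved replicate 3 or rest replicate 1 (-0.69 to -0.61), Ldha without peak replicate 3 (-0.79) and Pkm without resolved replicate 3 (-0.98). No UMI of Pfkfb3 or Slc16a3 was counted in Schwann-like sums of 173226 UMIs, which allows up to 17.3 CPM at 3 counts. In erythroid-like sums of 134643 UMIs, Pfkl and Pgk1 had 0 UMIs, which allows up to 22.3.

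**Figure D3:**
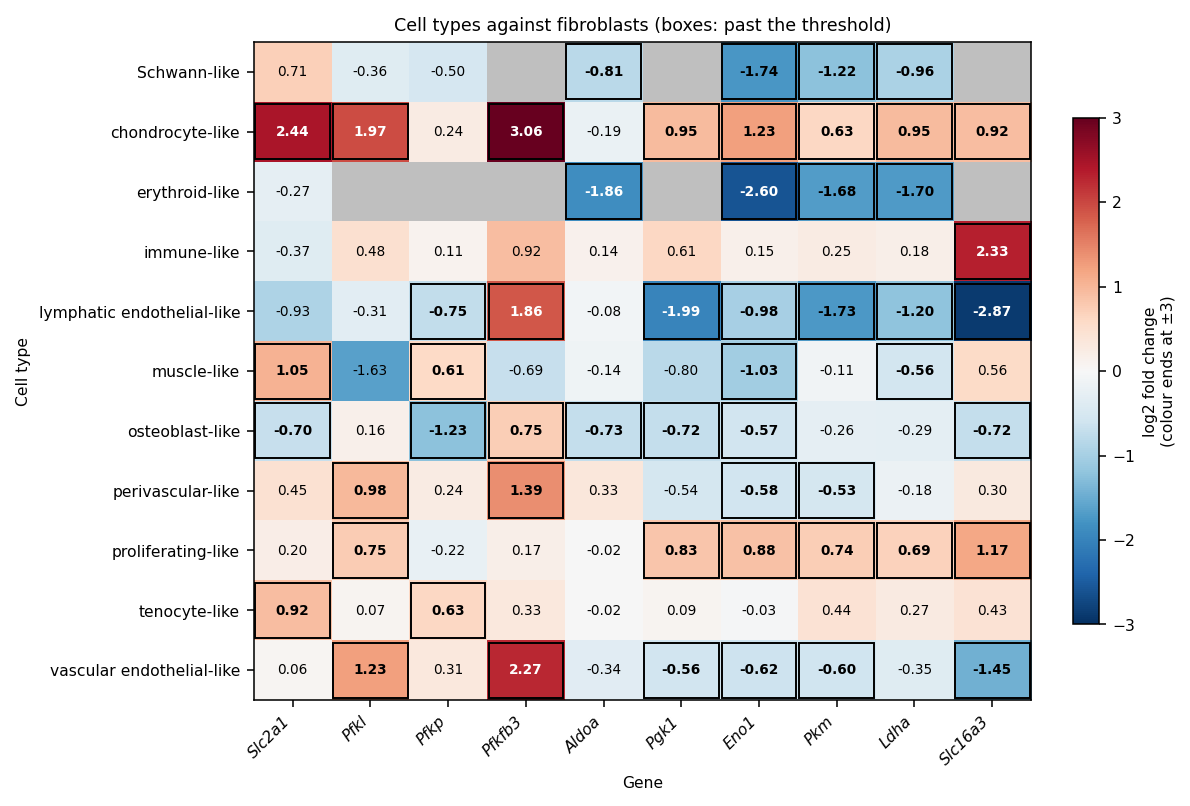
Fitted log2 fold change of each gene (columns) in each cell type (rows) against fibroblasts, with the library as a block; black boxes and bold numbers mark values past the threshold, and grey cells are genes with fewer than 4 UMIs in that type. Chondrocyte-like cells are higher for 8 genes, Pfkfb3 is higher in 5 types, and the small Schwann-like and erythroid-like groups are lower for 4 genes each.

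In the order of mean levels over 12 cell types, Pfkfb3 ran from chondrocyte-like (68.1 ± 41.0 CPM) over lymphatic (48.7 ± 25.3) and vascular endothelial-like (48.1 ± 12.7), perivascular-like (23.5 ± 17.2), immune-like (20.5 ± 4.93) and osteoblast-like cells (16.2 ± 7.00) to tenocyte-like (9.96 ± 7.64), proliferating-like (9.31 ± 7.52) and fibroblast-like cells (8.53 ± 4.29). Below these were erythroid-like (6.92 ± 9.79, 1 UMI) and muscle-like cells (4.57 ± 6.84, 4 UMIs), and Schwann-like cells had 0. Slc16a3 ran from immune-like (258 ± 122) and proliferating-like (127 ± 59.1) over perivascular-like (53.6 ± 26.1), muscle-like (53.1 ± 56.0) and fibroblast-like (42.3 ± 40.9), chondrocyte-like (38.3 ± 30.03) and tenocyte-like cells (36.6 ± 19.5) to osteoblast-like (22.2 ± 9.18), vascular (16.3 ± 12.7) and lymphatic endothelial-like cells (8.05 ± 7.60). Erythroid-like cells (6.92 ± 9.79, 1 UMI) were below these, and Schwann-like cells had 0. Ldha ran from proliferating-like (1230 ± 251) and chondrocyte-like (1130 ± 233) over fibroblast-like (654 ± 233) to erythroid-like cells (243 ± 185). These means are over different sets of libraries, from 2 to 12 per type, so they can differ from a comparison within libraries. Pfkfb3 was higher in proliferating-like than in fibroblast-like cells in 2 of the 6 libraries with both. The difference in log2 of the level plus 1 was -0.80. For lymphatic against vascular endothelial-like cells it was -0.17, with Pfkfb3 higher in 6 of 10 libraries. Over all members, 105 pairs of neighbours in these orders were tested by a two-sided exact paired permutation test over the libraries that held both types. At an adjusted p under 0.05, 0 of them differed, and the nearest was Pfkfb3 in vascular endothelial-like against perivascular-like cells, higher in 11 of 12 libraries (exact p = 0.000977, adjusted p = 0.103). With 12 libraries the smallest exact p is 0.000488, which times 105 pairs is 0.0513, so a single pair could not have passed even with all libraries in one direction. The test therefore cannot say whether neighbours differ.

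**Figure D4:**
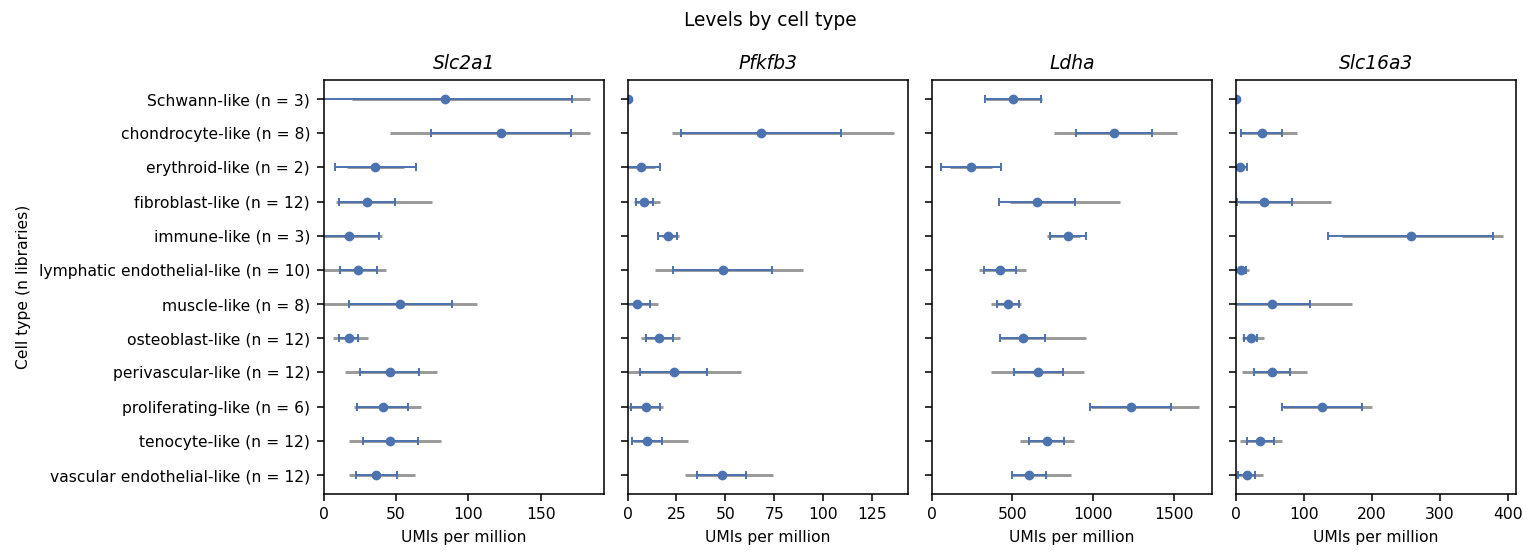
Levels of Slc2a1, Pfkfb3, Ldha and Slc16a3 (CPM, linear axis from 0) in each cell type, with points at the mean over libraries, capped bars at ±1 SD and grey lines from the lowest to the highest library. Chondrocyte-like cells lead for Slc2a1 (123) and Pfkfb3 (68.1), proliferating-like cells for Ldha (1230) and immune-like cells for Slc16a3 (258).

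The study divided its fibroblasts by Hk2, the hexokinase that traps glucose in the cell, and the same division was made here by at least 1 Hk2 UMI. It gave 5573 positive and 6015 negative cells, with medians of 6246 and 5503 UMIs per cell. Slc2a1 was 39.1 ± 24.2 CPM in positive and 19.2 ± 10.2 in negative sums (SD, n = 12 libraries), higher in 12 of 12, with a log2 fold change of 1.14 ± 0.11 (edgeR adjusted p = 4.16e-07). Pfkfb3 was 10.9 ± 5.21 against 5.96 ± 3.16, higher in 12 of 12 (1.01 ± 0.12, edgeR adjusted p = 5.01e-06). The other 8 genes were not past the threshold, beside 6.09% of the 9898 genes tested. Slc16a3 had 0.48 ± 0.14, Pgk1 0.45 ± 0.10, Pfkl 0.44 ± 0.09, Ldha 0.19 ± 0.04, Eno1 0.14 ± 0.07, Aldoa 0.12 ± 0.04, Pkm 0.07 ± 0.04 and Pfkp -0.02 ± 0.06. A deeper cell is more likely to show an Hk2 UMI, and with each cell thinned to 2000 UMIs Slc2a1 had 0.61 ± 0.14 (edgeR adjusted p = 0.00134) and Pfkfb3 and Pgk1 were too low to be tested, while 6 of the 8 genes tested turned to below 0, under the size threshold: Eno1 (-0.31 ± 0.06), Pfkl (-0.27 ± 0.16), Pkm (-0.23 ± 0.05), Aldoa (-0.14 ± 0.05), Slc16a3 (-0.14 ± 0.13) and Ldha (-0.06 ± 0.05). Of these, Eno1 (edgeR adjusted p = 0.000379), Pkm (edgeR adjusted p = 0.00121) and Aldoa (edgeR adjusted p = 0.0233) were under 0.05, and Pfkl, Slc16a3 and Ldha were not. With negative cells matched to the positive ones in UMIs, Slc2a1 had 1.07 ± 0.11 and Pfkfb3 0.92 ± 0.14, and matched in cluster within each library, 0.93 ± 0.12 and 0.70 ± 0.16. From 2 Hk2 UMIs, 5 genes were called, with Pfkl, Pgk1 and Slc16a3 added. Slc16a3 was also past the threshold without upper limits (0.61), with at most 10% mitochondrial UMIs (0.51), with doublets removed (0.59) and with the members kept for clustering (0.58), and at Leiden resolution 0.5 Slc2a1 fell to 0.58 ± 0.17.

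**Figure D5:**
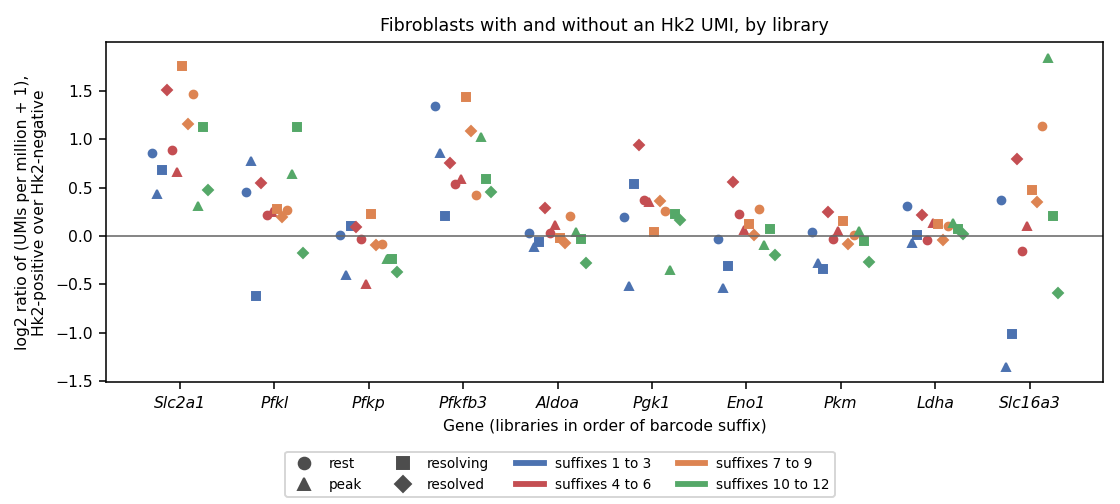
log2 ratio of each gene's level (CPM, plus 1) in fibroblasts with an Hk2 UMI over those without, 1 point per library in order of barcode suffix; shapes give the label and colours the run. Slc2a1 and Pfkfb3 lie above 0 in all 12 libraries, while points for Aldoa, Pkm and Eno1 lie on both sides of 0.

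The rest of the pathway was followed with a list of 29 further genes. In suffixes 4 to 6 against 1 to 3, 10 of its 23 tested genes rose and 1 fell, beside 35.0% of all genes. Pdk1, a kinase that holds pyruvate back from the mitochondrion, rose by 2.06 ± 0.29, Eno1b by 1.77 ± 0.49 and the monocarboxylate transporter gene Slc16a1 by 1.73 ± 0.15, and Pfkfb4 fell by 0.61 on the log2 scale. In suffixes 7 to 9, 6 rose, led by Eno3 (2.11), Pdk1 (1.45) and Gapdh (0.75), and Pfkfb4 and Hk2 fell, beside 26.3%. Hk2 had 0.22 ± 0.17 in suffixes 4 to 6, -0.54 ± 0.17 in 7 to 9 and 0.94 ± 0.17 in 10 to 12, and Hk1 had -0.22 ± 0.13, -0.48 ± 0.13 and -0.31 ± 0.13, so of the hexokinases none rose in suffixes 4 to 6, where most of the 10 genes did. By label 0 of the 29 genes were called. In sublining-like cells 1 of 18 tested genes was higher (Hk2, 0.80) and 4 lower, among them Pdk1 (-1.13) and Gapdh (-0.62), beside 14.8%. In lining-like cells Pfkfb4 was higher (1.70) and Ldhb (-2.48) and Hk2 (-0.76) lower, 3 of 19 tested, beside 28.0% of all genes. In the Cytl1 cluster 7 of 17 were higher and 0 lower, beside 23.7%, and in the Cxcl5 cluster 8 and 0 of 17, beside 20.3%. Chondrocyte-like cells had 7 of 20 higher, led by Hk1 (1.57), and 1 lower, beside 46.9% of all genes. Vascular endothelial-like cells had 3 of 20 higher and 9 lower, with Hk1 at 1.35 and Hk2 at -4.75, beside 52.9%. By Hk2 status 0 of 18 were higher and 1 lower (Eno3, -0.57), beside 6.09%.

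The genes whose levels over the 12 fibroblast sums were most like each member are given as a description, since the libraries share runs and every such correlation rests on the runs. For Pkm they were Fcgr2b, Gapdh and Pgam1 (Pearson's r 0.99 each on log2 of the level plus 1, n = 12). For Ldha they were Slc25a5, Ran and Prokr2 (0.98 to 0.99), for Eno1 Sgcb, Sfrp1 and Pgam1 (0.98 to 0.99), for Aldoa Mthfd1, Ero1l and Csf3 (0.95 to 0.96) and for Pgk1 Eno1b, Trp53bp1 and Psma5 (0.93). Pfkl and Slc16a3 were each other's closest gene (0.98). For Slc2a1 they were Gja1, Ets1 and Slc39a14 (0.93 to 0.94), for Pfkfb3 Tnfsf11, Itsn1 and Pelo (0.95 to 0.96) and for Pfkp Anxa1, Stmn4 and Arhgap21 (0.96). Among the 10 genes, r was between 0.59 and 0.98 for the pairs without Pfkp and between -0.78 and -0.38 for the pairs with it.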

How the data were processed

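The authors aligned the reads with Cell Ranger to mm10 and deposited whole-number UMI counts per gene and cell from a 10x 3′ kit. The median over deposited cells was 5358 UMIs in each library. Whether the counts were rescaled to a common depth is not given in the sources used here. No barcode sequence was shared between libraries. Positions are from GENCODE M21 on GRCm38, which holds 27645 of the 27998 gene identifiers.

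Cells with over 500 genes and 500 UMIs and under 5000 genes were kept, with upper UMI limits of 20000, or 25000, 30000 or 40000 in the libraries for which the study states them. Clustering used scanpy 1.11.5 (2000 variable genes, 30 components, 20 neighbours, Leiden resolution 1, leidenalg 0.10.2). A cluster was named when at least 4 markers of a class passed, or 5 of 7 fibroblast markers, and 1378 cells stayed unnamed; these limits were set after the clusters were seen. Doublets were kept, since Scrublet called 56 cells (0.279%), and an alternative removed the 6% with the highest scores.

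UMIs were summed per library and group (at least 10 cells) and tested with edgeR 4.0.16 in R 4.3.3 (TMM, filterByExpr, two-sided quasi-likelihood test, Benjamini-Hochberg over all genes tested), with the library as a block where groups share libraries and without a block for labels and runs. The SE is the log2 fold change divided by the square root of F. Replicates are libraries of separately pooled animals. In simulated counts, 67.5% of genes changed by 1 (log2) were recovered for suffixes 4 to 6 against 1 to 3 over 11598 genes, 100% for Hk2 status over 9817, 80.5% for chondrocytes over 8111, 94.0% for the Serpina3c cluster over 7637, 93.8% for lining over 9081 and 83.9% for sublining over 8700.

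The genes and lists were chosen with earlier results of these data known. The rule for naming took all 10 genes in every comparison; the text counts all of them and gives part of the uncalled values by range or in a plot. Of the other pathway genes it took at most 3 called each way, with Hk1 and Hk2; further genes appear as cluster leads, as the 3 hypoxia genes that rose most, which were chosen after their values were seen, or as the 3 closest by correlation. The alternatives included DESeq2 1.42.0, other scaling, filters, clustering, thinning and each library left out.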

Additional observations from a re-analysis of the deposited data

Results flagged for a closer look

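Levels of the 10 genes were examined for a single library far from the others of its group, in groups of 4 to 10 libraries, and 6 of 80 such sets had one. Chance gives about 1 in 20 for independent sets. These genes move together and the groups mix runs, so that rate is a rough guide only. In chondrocyte-like cells Pfkp was 112 CPM in peak replicate 2 (suffix 6), with the nearest library at 62.4, on 10 cells and 6 UMIs of the gene. In the Cytl1 cluster, rest replicate 3 (suffix 9, 22 cells) had Slc2a1 at 444 CPM (44 UMIs of the gene), with the nearest at 170, and Pfkfb3 at 30.3 (3 UMIs), with the nearest at 14.0. In the C1qtnf3 cluster, peak replicate 2 (30 cells) had Pfkl at 35.8, with the nearest at 20.5, and Eno1 at 765, with the nearest at 414. In the Col5a3 cluster, peak replicate 2 (116 cells) had Eno1 at 839, with the nearest at 549. Peak replicate 2 is the library in 4 of the 6 and belongs to suffixes 4 to 6, where most of these genes were high. The part of the run and of the few cells in these values was not tested.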

How the results depend on the processing

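Over all alternatives the single values of the 10 genes kept direction and side of the threshold in 6093 instances, passed it in 91, lost it in 195 and reversed with a call on one side in 8. In 251 instances they changed sign while called under neither setting. The count by label stayed at 0 in all of them. The 53 calls between cell types stayed within 1.5 times, and the 6 sublining-like calls at 5 to 7 except when thinned to 2000 UMIs (3); at Leiden resolution 0.5 no sublining-like cluster was named and nothing could be fitted. At that resolution the calls between clusters fell to 18, those between runs to 9 (from 15), and lining-like calls went from 2 to 4, as they did with at most 10% mitochondrial UMIs (4). Lining-like calls were 1 without upper limits, with doublets removed, with the members kept among the clustering genes, without the library block and when thinned. Calls by Hk2 status were 1 when thinned, 5 from 2 UMIs and 2 or 3 under the others. The reversed values were those of tenocyte-like cells, Pfkp at -0.28 without upper limits, -0.31 with doublets removed and -0.80 with members kept for clustering, Slc16a3 at -1.71, -1.57 and -2.82 in the same order and Pfkl at -1.06 with members kept, and of Aldoa in lymphatic endothelial-like cells, 0.52 with total counts alone; the cause was not tested. With each library left out in turn, calls ranged from 44 to 53 for cell types, 50 to 58 for clusters, 1 to 2 for lining, 6 to 6 for sublining, 0 to 0 for labels, 13 to 16 for runs and 2 to 3 for Hk2 status. Libraries with the same replicate number correlated at -0.528 to 0.692 in their deviations, 11 of 18 pairs over 0.1 and 4 of 12 libraries closest to their own number, and were not used as pairs; a replicate block gave 0 calls by label. Depth limits Pfkfb3 (692 UMIs in fibroblasts), Pgk1 (1431) and the Schwann-like and erythroid-like groups most.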
